A study of Mus musculus with 12 samples.

Results

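The genes described here are 8 genes of cholesterol synthesis and its control, chosen by symbol through the probe-to-symbol table of the array. Sqle, Idi1, Hsd17b7, Msmo1, Cyp51 and Mvd encode enzymes of the pathway, Stard4 encodes a cholesterol carrier, and Srebf2 encodes the transcription factor SREBP2. All 8 had a probe, 9 probes of 26423 in all because Cyp51 had 2, and they are 8 of the 19084 genes with a named probe. Liver RNA of male C57BL/6 mice was hybridised to 12 single-colour arrays, 3 in each of 4 groups, in a study that asked how PTFC, a total flavonoid extract of citrus, acts on fatty liver. ND mice ate a normal diet with 12.3% fat for 24 weeks. HFD16 and HFD24 mice ate a high-fat diet with 36.1% fat for 16 and 24 weeks, to which 10% lard, 5% egg yolk powder, 2% cholesterol and 0.25% bile salt had been added. PTFC mice ate the same high-fat diet for 6 weeks and then, for a further 18 weeks, were given the extract daily by gavage (50 mg per kg body weight), while the other groups were given saline. All mice fasted for 12 hours before liver was taken. Mice were 23 to 25 weeks old in HFD16, 31 to 33 weeks in HFD24, PTFC and the first ND replicate, and 30 to 32 weeks in the other ND replicates, so age and time on the diet cannot be told apart where HFD16 is compared. The labels give 6 mice per group and 3 arrays, and do not say that each array came from its own animal. The p-values therefore cover only the spread from sample to sample, part or all of which may be technical.

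Cholesterol is built from acetyl-CoA through mevalonate, the isoprenoid units, squalene and lanosterol. In liver most enzymes of the route are controlled together by SREBP2. SREBP2 is held in the membrane of the endoplasmic reticulum by SCAP and INSIG proteins when sterols are plentiful, and when they are scarce it is cut free and enters the nucleus, where it acts with the factors NF-Y and SP1. Feeding cholesterol is a textbook way of lowering these enzymes in liver.

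The stretch around the start of a gene is where SREBP2 and its partners bind in many sterol genes, and 4 such stretches are shown because their genes follow 4 different courses over the groups. Idi1 fell on the high-fat diet and was low with PTFC too, Hsd17b7 fell on the diet and was higher with PTFC, Mvd fell with PTFC, and Srebf2 had its highest mean with PTFC. Of the 8 genes, 6 had an entry in RefSeq's promoter table of build GRCm38.p6, which gives 250 bases before and 50 bases after a gene's start. Sqle and Stard4 had none. Capitals mark the CCAAT box, the core letters of the NF-Y site, on either strand (CCAAT or its complement ATTGG), and each sequence is written 5′ to 3′ on the strand of its gene.
Idi1 (chr13:8885356-8885655, plus strand): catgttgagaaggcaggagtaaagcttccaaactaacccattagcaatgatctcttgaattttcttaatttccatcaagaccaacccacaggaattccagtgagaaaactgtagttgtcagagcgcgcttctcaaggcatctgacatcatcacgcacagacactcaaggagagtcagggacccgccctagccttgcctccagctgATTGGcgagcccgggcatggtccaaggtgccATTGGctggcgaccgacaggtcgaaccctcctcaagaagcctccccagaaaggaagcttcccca
Hsd17b7 (chr1:169969156-169969455, minus strand): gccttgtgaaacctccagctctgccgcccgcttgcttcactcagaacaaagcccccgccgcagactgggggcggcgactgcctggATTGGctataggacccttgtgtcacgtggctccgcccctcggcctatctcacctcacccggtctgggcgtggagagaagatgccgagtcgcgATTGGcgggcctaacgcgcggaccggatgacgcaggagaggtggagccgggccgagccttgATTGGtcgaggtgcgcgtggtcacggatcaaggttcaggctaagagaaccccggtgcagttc
Mvd (chr8:122443373-122443672, minus strand): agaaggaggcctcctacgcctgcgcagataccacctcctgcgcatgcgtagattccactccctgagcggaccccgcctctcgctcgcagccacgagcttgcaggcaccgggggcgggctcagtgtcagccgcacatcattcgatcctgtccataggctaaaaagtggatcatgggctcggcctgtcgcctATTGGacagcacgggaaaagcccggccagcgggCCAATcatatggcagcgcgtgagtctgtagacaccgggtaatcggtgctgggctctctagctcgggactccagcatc
Srebf2 (chr15:82147019-82147318, plus strand): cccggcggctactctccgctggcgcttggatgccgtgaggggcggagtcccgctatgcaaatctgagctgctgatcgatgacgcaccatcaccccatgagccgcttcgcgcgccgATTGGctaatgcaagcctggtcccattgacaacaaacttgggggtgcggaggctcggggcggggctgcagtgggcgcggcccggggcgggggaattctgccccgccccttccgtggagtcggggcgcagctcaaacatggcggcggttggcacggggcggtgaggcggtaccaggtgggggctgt

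The CCAAT box lay in all 6 windows, including those of Msmo1 and Cyp51, against 37.4% of the 32851 windows in the table. It occurred 3 times in Hsd17b7 and Msmo1, 2 times in Idi1 and Mvd and once in Cyp51 and Srebf2. The GC box GGGCGG, the core of the SP1 site, also lay in all 6, against 35.7% of all windows, and Srebf2 held 5 copies. A strict form of the sterol regulatory element, TCACNCCAC, lay in none of the 6 and in 1.24% of all windows. A looser form, TCACNNCA, lay in 4 of the 6, in Hsd17b7, Cyp51, Msmo1 and Srebf2, and in 13.8% of all windows. The looser form was written down after the sequences had been read. All motifs were searched on both strands and may overlap. In the 11 other enzymes of the pathway with a probe, 10 of 14 windows held a CCAAT box. A match is a run of letters and not a site shown to be bound.

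**Figure D1:**
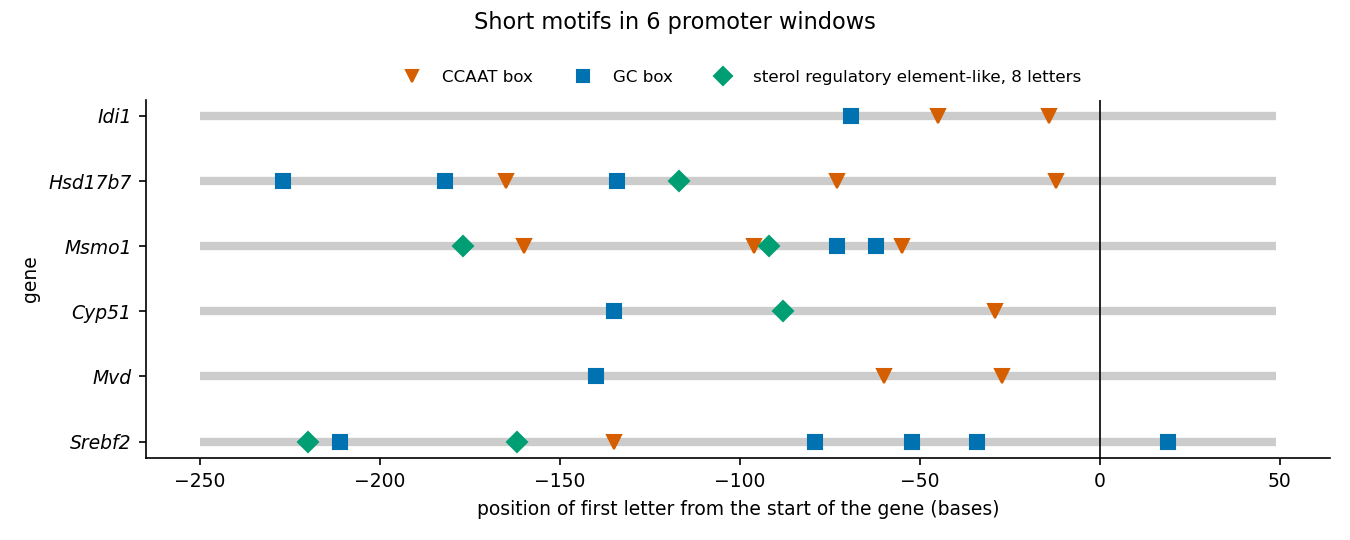
Positions of the CCAAT box, the GC box and the looser sterol regulatory element in the promoter windows of 6 genes, with the distance of the first letter from the start of the gene on the horizontal axis (bases, negative before the start). Each grey bar is a window of 300 bases, and every window holds at least 1 CCAAT box and 1 GC box, while the looser element is marked in 4 of them.

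Levels are given below as deposited intensity, which is linear, and differences on the log2(intensity + 1) scale after quantile normalization over the arrays, which understates changes of dim genes. Levels of different genes come from different probes and were compared only as ratios within an array. The size of such a ratio has no meaning across probes, and only its change between groups is read. Array medians lay between 249 and 408 in deposited intensity, and precision is limited by having 3 arrays in a group. A gene was called at a limma adjusted p under 0.05 with Benjamini-Hochberg adjustment over all 19084 genes. The tissue label was checked with 12 measured hepatocyte markers, none of which was at 0 on any array. Of these, Tat fell in HFD24 against ND (log2 -0.87) and the other 11 were not called.

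Hepatic Sqle, squalene epoxidase, which adds oxygen to squalene and is a rate-limiting step of the later pathway, was lower in every group on the high-fat diet. Its deposited intensity was 499.5, 678 and 677 on the ND arrays, 62.4, 117 and 69.2 in HFD16, 56.1, 93.3 and 82.9 in HFD24, and 94.5, 87.3 and 106 in PTFC. The ND arrays stood far above all 9 others, and the 3 groups on the high-fat diet lay close together. Sqle fell by 2.76 ± 0.22 on the log2 scale in HFD24 against ND (SE, n = 3 per group, limma adjusted p = 4.96e-05), a 6.78-fold difference. At 16 weeks the log2 difference from ND was -2.63 ± 0.22 (limma adjusted p = 1.41e-04). Apart from the second HFD16 array, the arrays on the high-fat diet had a normalized log2 level under 6.84, the limit of the dimmest 25% of genes, where a fold is least certain. The order of HFD24 and PTFC depends on the scaling: PTFC is the lower after normalization and the higher as deposited.

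Idi1, isopentenyl diphosphate isomerase, which interconverts the isoprenoid units, was ordered ND, HFD16, HFD24, PTFC from high to low. Its intensity was 5333, 8339.5 and 6198 in ND, 2556, 3435 and 1913 in HFD16, 810.5, 888 and 1429 in HFD24, and 872, 795 and 730.2 in PTFC. After normalization no neighbouring groups in this order overlapped. The log2 difference was -1.32 ± 0.23 for HFD16 and -2.65 ± 0.23 for HFD24 against ND (limma adjusted p = 0.00377 and 7.48e-05). HFD24 against HFD16 was -1.32 ± 0.23, as large as the first step, and was not called (limma adjusted p = 0.0895).

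Cyp51, which removes a methyl group from lanosterol, was measured by 2 probes. On the brighter probe its intensity was 2408, 2705.5 and 3684 in ND, 923, 1170 and 763 in HFD16, 485, 580.0 and 1260.4 in HFD24, and 733, 698 and 701 in PTFC. The third HFD24 array stood far above the others of its group and reached above the HFD16 arrays. The log2 difference in HFD24 against ND was -1.95 ± 0.26 (limma adjusted p = 7.75e-04), and the dimmer probe gave -1.55 ± 0.24 (limma adjusted p = 0.00138 over all probes). In HFD16 against ND the brighter probe gave -1.56 and the dimmer -0.88, both called. The dimmer probe had an intensity of 249, 314 and 282 in ND and 119, 134 and 111 in HFD16. It was 59.9, 61.8 and 126 in HFD24 and 61.1, 67.6 and 88.6 in PTFC. Its normalized log2 level was at most 6.11 in PTFC, under the 6.84 limit of the dimmest 25% of genes.

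Msmo1 and Hsd17b7 act in the same stretch of the pathway, the removal of the methyl groups at carbon 4 of the sterol, Msmo1 as the oxidase and Hsd17b7 as the ketone reductase. Msmo1 intensity was 3969, 3935 and 6154 in ND, 1609, 1427 and 1367 in HFD16, 1540.2, 1572 and 1681 in HFD24, and 1379, 1210.4 and 1335 in PTFC. Hsd17b7 intensity was 21392, 25009 and 22238 in ND, 6108, 7275 and 6387 in HFD16, 7560.5, 8377 and 5661 in HFD24, and 12224, 21520.3 and 14625 in PTFC. Both were low in HFD16 and HFD24 with no overlap with ND. They parted in PTFC, where after normalization Msmo1 was at its lowest and Hsd17b7 lay between HFD24 and ND. As deposited, the second PTFC array of Hsd17b7 (21520.3) lay just above the first ND array (21392). In HFD24 against ND Hsd17b7 changed by log2 -1.65 ± 0.20 and Msmo1 by -1.51 ± 0.19 (limma adjusted p = 4.66e-04 and 5.06e-04), and in HFD16 against ND by -1.77 ± 0.20 and -1.59 ± 0.19 (5.50e-04 and 6.94e-04).

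Stard4, which carries cholesterol between membranes in the cell, did not share the fall at 16 weeks. Its intensity was 4746, 5031 and 4258 in ND, 4234, 5219.6 and 4216 in HFD16, 1516, 1125 and 2585 in HFD24, and 1473, 1059.8 and 974 in PTFC. HFD16 overlapped ND, and HFD24 and PTFC lay below both. The log2 difference was -0.04 ± 0.25 in HFD16 against ND (95% interval -0.59 to 0.50, limma adjusted p = 0.926) and -1.50 ± 0.25 in HFD24 against ND (limma adjusted p = 0.00206). Within an array, the log2 ratio of Stard4 to Sqle was 5.56 ± 0.27 in HFD16 and 2.97 ± 0.44 in ND (SD, n = 3), and the arrays did not overlap (exact two-sided permutation p = 0.1, the smallest that 3 against 3 can give, and 0.1 after adjustment over the 3 ratios tested, which were chosen after the values were seen).

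Mvd, mevalonate diphosphate decarboxylase, which makes the first isoprenoid unit, did not pass the test on the high-fat diet alone. Its intensity was 586, 519.9 and 651 in ND, 439, 605.5 and 413 in HFD16, 339, 588 and 727 in HFD24, and 343, 268 and 229.7 in PTFC. After normalization the first 3 groups overlapped and the PTFC arrays lay below all of them. As deposited, the first PTFC array (343) lay just above the first HFD24 array (339). The log2 difference in HFD24 against ND was -0.01 ± 0.22 (95% interval -0.49 to 0.47, limma adjusted p = 0.98), and turned to 0.05 under median centring. Within an array, the log2 ratio of Idi1 to Mvd, which acts directly before it, was 0.89 ± 0.28 in HFD24 and 3.53 ± 0.55 in ND (SD, n = 3, exact two-sided permutation p = 0.1, and 0.1 after adjustment). This ratio too was chosen after the values were seen, so it is a description.

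Srebf2 intensity was 2231, 2832 and 1545 in ND, 1563, 2003 and 1944 in HFD16, 1232, 1259 and 1903 in HFD24, and 2667.5, 2372 and 2786 in PTFC. Neighbouring groups in the order HFD24, HFD16, ND, PTFC overlapped. The log2 difference in HFD24 against ND was -0.57 ± 0.21 and was not called (limma adjusted p = 0.0742). It was called without the third ND array (log2 -0.76, limma adjusted p = 0.0161) or the third HFD24 array (-0.73, 0.0418), and its adjusted p lay between 0.0161 and 0.277 over 22 other settings.

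**Figure D2:**
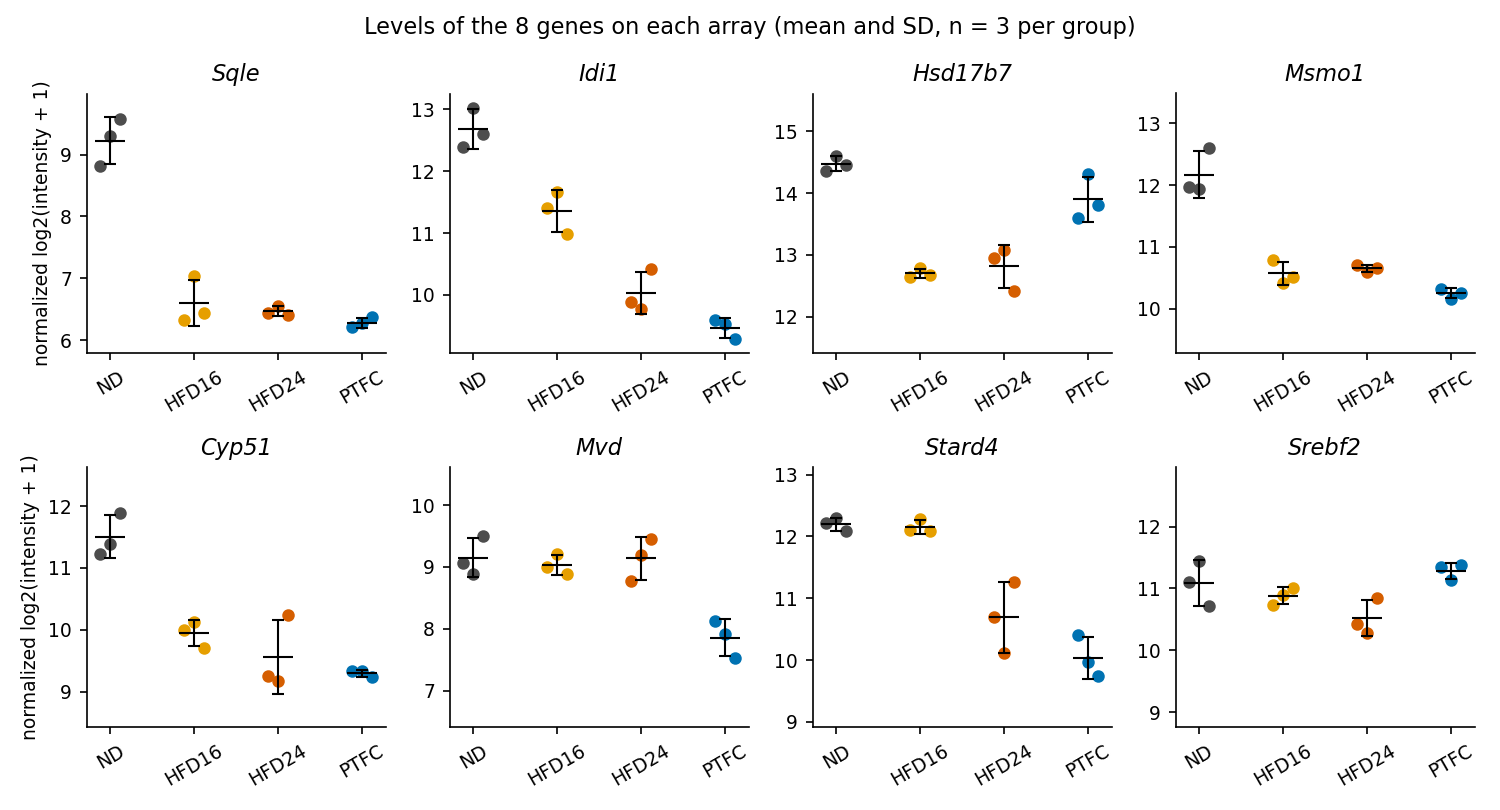
Normalized log2(intensity + 1) of each of the 8 genes on the 12 arrays, by group, with the mean and SD of 3 arrays (every panel spans the same number of log2 units). Sqle, Idi1, Hsd17b7, Msmo1 and Cyp51 are lower in HFD16 and HFD24 than in ND without overlap, Stard4 is lower from HFD24 on, Mvd is low in PTFC, and Hsd17b7 in PTFC lies between HFD24 and ND.

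In HFD24 against ND 6 of the 8 genes fell and none rose, while 8.28% of all genes were called lower and 9.97% higher. The arrays of these 6 lay below ND without overlap, as did those of 18.1% of all genes. In the same comparison the median difference of the 8 genes was log2 -1.58, and that of all genes -0.06. In HFD16 against ND 5 of the 8 fell, Stard4 being the one called at 24 weeks and not at 16, while 8.11% of all genes were called lower and 10.0% higher. The arrays of the 5 lay below ND without overlap, as did 18.9% of all genes, and the median was -1.44 beside -0.03 for all genes. These comparisons share the ND arrays. No gene of the 8 was called in HFD24 against HFD16 by limma, where 7 of all genes (0.0367%) were called, and Idi1 and Stard4 had an unadjusted p under 0.05 (7.03e-05 and 6.05e-05) and HFD24 arrays below HFD16 without overlap, as did 10.1% of all genes. Stard4 was called there without the third HFD24 array (log2 -1.75, limma adjusted p = 0.0142). Idi1 was called with the scaling step of the arrays as a covariate (log2 -1.22, limma adjusted p = 0.0439). The dimmer Cyp51 probe was at log2 -0.67 ± 0.24 in HFD24 against HFD16 (limma unadjusted p = 0.0135, adjusted p = 0.392 over all probes). Its HFD24 arrays lay below HFD16 without overlap after normalization, but overlapped as deposited. The brighter Cyp51 probe was at -0.39 ± 0.26, with overlap.

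The arrays differed in one technical measure that moved with the diet. On each array at least 99.98% of the deposited values were whole multiples of one step (within 0.02 of a step), and the step averaged 1.31 ± 0.13 in ND, 0.92 ± 0.21 in HFD16, 0.98 ± 0.14 in HFD24 and 0.95 ± 0.09 in PTFC (SD, n = 3; ND against HFD24, exact two-sided permutation p = 0.1). The step was at least 1.232 on every ND array and at most 1.124 on every other array. Step and diet therefore cannot be told apart, and a fit with the step as a covariate takes out part of both. With the step as a covariate the genes called in HFD16 against ND numbered 219 in place of 3462, and in HFD24 against ND 1086 in place of 3483. The same 5 and 6 of the 8 genes stayed called in those fits. Macrophage markers rose with the diet, 11 of 11 measured being called in HFD24 against ND, and their summed normalized intensity was 17385 to 42971 in ND, 42502 to 191170.3 in HFD16, 131068 to 202682 in HFD24 and 70676 to 94119.5 in PTFC. The sum over the hepatocyte markers was 2723459.9 to 2904870.4 in ND, 2506637 to 2671062 in HFD16, 2566621 to 2754066 in HFD24 and 2697835 to 2819027.5 in PTFC, so that HFD16 lay below ND without overlap. Of the other markers in HFD24 against ND, 10 of 12 for stellate cells and matrix rose and 1 fell, 6 of 8 for endothelium and 3 of 8 for T and NK cells rose, and 2 of 6 for bile duct cells fell. The part of the step or of the marker levels in the results was not tested. In bulk liver, fewer cells of a type and less RNA per cell cannot be told apart.

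**Figure D3:**
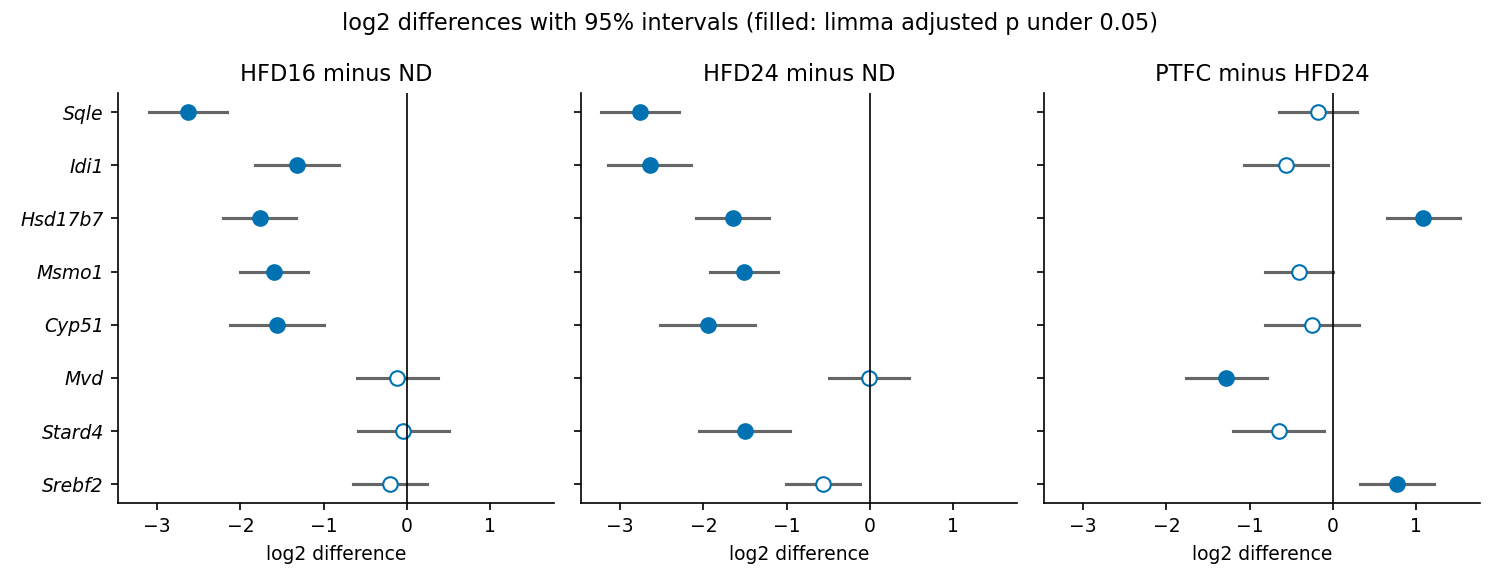
log2 differences of the 8 genes with 95% intervals from limma in HFD16 minus ND, HFD24 minus ND and PTFC minus HFD24, with filled points where the limma adjusted p was under 0.05. The same 5 enzymes lie near or below -1.3 in both diet panels, and with PTFC Hsd17b7 (1.08) and Srebf2 (0.77) lie above 0 and Mvd (-1.28) below.

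In PTFC against HFD24, which addressed the extract on the same diet, Hsd17b7 and Srebf2 rose and Mvd fell. Hsd17b7 was 2.12-fold higher (log2 1.08 ± 0.20, SE, n = 3 per group, limma adjusted p = 0.0182) and Srebf2 1.70-fold higher (log2 0.77 ± 0.21, limma adjusted p = 0.046). Mvd was 2.43-fold lower (log2 -1.28 ± 0.22, limma adjusted p = 0.0175). That is 2 of 8 higher and 1 of 8 lower, against 2.96% and 3.04% of all genes called higher and lower. After normalization the 3 arrays of PTFC and of HFD24 did not overlap for these 3 genes, nor for Sqle, Idi1 and Msmo1, as was so for 31.1% of all genes. As deposited, those of Mvd, Sqle and Idi1 overlapped.

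The calls with PTFC rested on few arrays. Without the third PTFC array these 3 genes were not called, when 11 of all genes were called in place of 1145, and their log2 differences were 1.14 for Hsd17b7, -1.12 for Mvd and 0.72 for Srebf2 (limma adjusted p = 0.0934, 0.0943 and 0.19). Without the first HFD24 array Mvd alone was called, and under median centring too, where Hsd17b7 was at 0.77 and Srebf2 at 0.49 (limma adjusted p = 0.0752 and 0.129). In PTFC against HFD24 all 11 macrophage markers lay below 0 (median log2 -1.03, 8 without overlap of the arrays), 0 of 11 being called by limma and 4 having an unadjusted p under 0.05. Of the other markers there, 4 of 12 for stellate cells and matrix fell, 1 of 8 for T and NK cells fell (Thy1, log2 -1.37) and 1 of 6 for bile duct cells rose (Cldn7, log2 0.93, limma adjusted p = 0.0171). The part of these in the result was not tested. Over 22 other settings Mvd was called in 21, Hsd17b7 in 19 and Srebf2 in 13, with no change of direction.

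The other 5 genes were not called in PTFC against HFD24. Sqle differed by log2 -0.18 (95% interval -0.65 to 0.28), Cyp51 by -0.25 (-0.82 to 0.31), Msmo1 by -0.41 (-0.82 to 0.0016), Idi1 by -0.56 (-1.06 to -0.06) and Stard4 by -0.65 (-1.20 to -0.11), with limma adjusted p between 0.133 and 0.653. The direction of Sqle and of the brighter Cyp51 probe depended on the scaling, at 0.33 and 0.0058 without normalization between arrays. Without the third HFD24 array the brighter Cyp51 probe was at 0.09. The dimmer Cyp51 probe was at -0.63 ± 0.24 after normalization (limma unadjusted p = 0.019, adjusted p = 0.123 over all probes), with arrays that overlapped. The intervals of Idi1 and Stard4 exclude 0 before the adjustment over all genes. Within an array, the log2 ratio of Hsd17b7 to Msmo1 was 3.66 ± 0.44 in PTFC and 2.16 ± 0.36 in HFD24 (SD, n = 3, exact two-sided permutation p = 0.1, and 0.1 after adjustment), without overlap. This ratio too was chosen after the values were seen, so it is a description.

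Set against ND, PTFC livers had 6 of the 8 genes lower and none higher, while 1.29% of all genes were called lower and 1.04% higher. Counted by arrays that lay below ND without overlap after normalization there were 7, Hsd17b7 included, against 12.1% of all genes. As deposited, Hsd17b7 overlapped ND. Idi1 was 9.24-fold lower (log2 -3.21 ± 0.23, limma adjusted p = 3.52e-05), Sqle 7.69-fold (-2.94 ± 0.22), Cyp51 4.61-fold (-2.20 ± 0.26), Stard4 4.46-fold (-2.16 ± 0.25), Msmo1 3.78-fold (-1.92 ± 0.19) and Mvd 2.45-fold (-1.29 ± 0.22, limma adjusted p = 0.0135). Mvd was not called without the third PTFC array (limma adjusted p = 0.0658), without the first ND array (0.0549), with the scaling step as a covariate (0.0528) or without normalization (0.059), from 0.0104 up over the settings. Hsd17b7 was at -0.57 ± 0.20 and Srebf2 at 0.20 ± 0.21 (limma adjusted p = 0.164 and 0.71), so that neither was called against ND. This comparison shares its ND arrays with HFD24 against ND and its PTFC arrays with PTFC against HFD24.

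Among the other enzymes of the pathway, the list drawn up for this work had 15 genes, of which 11 had a probe. The other 4 were not analysed here. Of all genes 8.28% were called lower and 9.97% higher in HFD24 against ND, and 8.11% and 10.0% in HFD16 against ND. In PTFC against HFD24 the shares were 3.04% and 2.96%. In HFD24 against ND 4 of the 11 fell and none rose: Tm7sf2, a sterol reductase (log2 -1.31 ± 0.33), Fdps, farnesyl diphosphate synthase (-0.96 ± 0.26), Nsdhl, the dehydrogenase that works beside Msmo1 and Hsd17b7 (-0.91 ± 0.22), and Lss, lanosterol synthase (-0.64 ± 0.20). Their limma adjusted p ran from 0.0134 to 0.0388, and all 11 lay below 0. In HFD16 against ND 4 of the 11 fell, Tm7sf2 at -1.28, Pmvk, phosphomevalonate kinase, at -1.22, Dhcr7, the last reductase, at -0.87 and Nsdhl at -0.83. None of the 11 was called in PTFC against HFD24 by limma, with 3 at an unadjusted p under 0.05, Mvk at -0.40, Pmvk at -0.51 and Fdft1 at -0.60. With the scaling step as a covariate none of the 11 was called by limma in HFD24 or HFD16 against ND (2 at an unadjusted p under 0.05 in each). In HFD24 against ND 1 of the 11 was called without the first or the second ND array and 2 without the second or the third HFD24 array. Of all genes 1734, 1902, 2824 and 2650 were called in these 4 fits, in place of 3483. In HFD16 against ND 1 was called without the second HFD16 array, and 2 without the third HFD16 or the first ND array or in a fit of only these groups. Of all genes 1939, 1588, 1339 and 2395 were called in these fits, in place of 3462.

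Taking the 17 measured enzymes in pathway order, the 8 genes supplying 6 of them, 9 fell in HFD24 against ND and none rose. Of all genes 8.28% were called lower in HFD24 against ND and 1.29% in PTFC against ND. Of the 6 enzymes up to squalene, 2 fell in HFD24 against ND, Idi1 and Fdps, and 5 in PTFC against ND, where Pmvk, Mvd and Fdft1 were called too and Mvk was not. Of the 11 enzymes from Sqle on, 7 fell in HFD24 against ND and 4 in PTFC against ND, namely Sqle, Cyp51, Msmo1 and Nsdhl. The 5 early calls in PTFC against ND became 1 without the third PTFC array, without the first ND array or with the step as a covariate, 2 without the second PTFC array or without normalization, and 3 under median centring, with the mean of a gene's probes, with the replicate block, or without the second ND, the third ND or the third HFD16 array. In the main fit 445 of all genes were called in PTFC against ND. The number was 58 without the third PTFC array, 64 without the first ND array and 616 without the third ND array. The 4 late calls became 7 without the second HFD16 array, when 623 of all genes were called. With the step as a covariate 5 of the 17 were called in HFD24 against ND, 5 in HFD16 against ND and 4 in PTFC against ND. Of all genes 1086, 219 and 54 were called in those fits. Whether the early and the late enzymes differ was not tested.

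**Figure D4:**
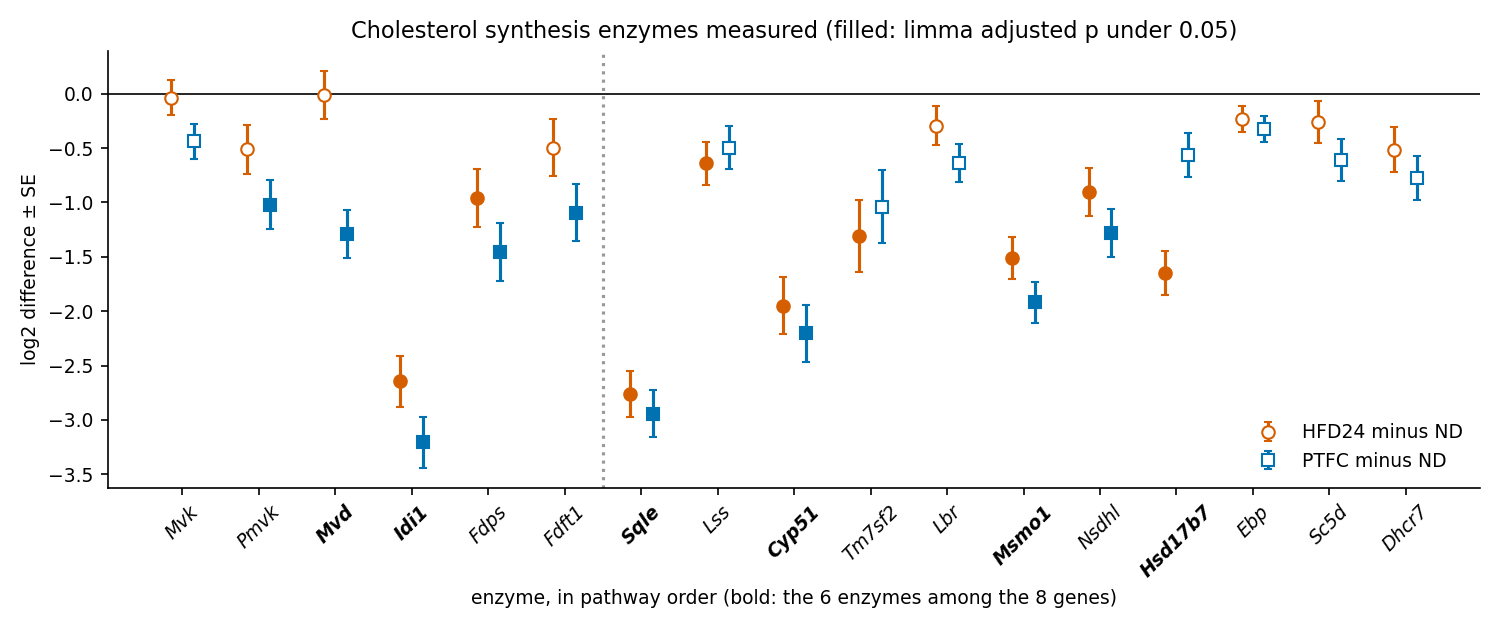
log2 difference from ND, with SE, of the 17 measured enzymes of cholesterol synthesis in pathway order for HFD24 (circles) and PTFC (squares), filled where the limma adjusted p was under 0.05. A dotted line separates the enzymes up to squalene from those from Sqle on, names of the 6 enzymes among the 8 genes are bold, and Idi1 and Sqle are lowest at -2.65 and -2.76 in HFD24 and -3.21 and -2.94 in PTFC.

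For the counts that follow, 9.97% of all genes were called higher and 8.28% lower in HFD24 against ND. In PTFC against HFD24 the shares were 2.96% and 3.04%. Of 9 measured genes that hold or cut SREBP2 or sense sterols, 1 rose in HFD24 against ND, near the share of all genes. It was Erlin2, a protein of the endoplasmic reticulum membrane (log2 0.65 ± 0.19, limma adjusted p = 0.0331). The other 8 were not called, with Scap at -0.39 ± 0.17 and Insig1, a SREBP2 target that in turn retains it, at -0.49 ± 0.39. In PTFC against HFD24 1 of the 9 rose, Insig2, which retains SREBP2 (0.69 ± 0.17, limma adjusted p = 0.0386), a call kept in 13 of 22 other settings. Insig1 was at -0.16 ± 0.39 there, with a 95% interval of -1.01 to 0.68. Of 7 genes in a mixed list of cholesterol uptake, cholesterol transport and other SREBP2 targets, 3 rose in HFD24 against ND and none fell. All 7 had an unadjusted p under 0.05 there by limma. Of the 4 not called, Tmem97 (-0.48), Npc1 (-0.54) and Npc1l1 (-0.48) lay below 0 and Lrp1 (0.38) above. Their limma adjusted p ran from 0.0783 to 0.131. Whether the 3 that rose answer to SREBP2 was not tested. The 3 were Mylip, a ubiquitin ligase (1.25 ± 0.34, with arrays that overlapped ND), Npc2, which moves cholesterol out of lysosomes (0.87 ± 0.18), and Scarb1, the HDL receptor (0.72 ± 0.15). Scarb1 was lower in PTFC than in HFD24 (-0.65 ± 0.15, limma adjusted p = 0.0294), a call kept in 14 of 22 other settings. Both PTFC calls, Insig2 and Scarb1, were lost with the replicate block, without any 1 of the HFD24 arrays, and without the second or the third PTFC array, with a highest limma adjusted p of 0.263 for Insig2 and 0.112 for Scarb1. In HFD24 against ND the calls of Erlin2 and Mylip were kept in 16 of 22 other settings, that of Npc2 in 21 and that of Scarb1 in 22. In HFD16 against ND Erlin1, a partner of Erlin2, rose (0.95 ± 0.25), as did Npc2 (0.57 ± 0.18), and Tmem97, which binds the cholesterol transporter NPC1, fell (-1.03 ± 0.19), as did Npc1l1, the sterol uptake protein of the cell surface (-0.90 ± 0.21). These 4 calls were lost with the step as a covariate, and that of Npc2 was kept in 8 of 22 other settings. Of 6 enzymes of the isoprenoid side branches none was called in HFD24 against ND by limma, with 2 at an unadjusted p under 0.05.

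Within groups the 8 genes did not all vary together. With the mean of each group taken off, pairs of genes correlated over the 12 arrays at a median r of 0.24, from -0.64 to 0.71, and 16 of the 28 pairs were above 0. The closest pairs were Cyp51 with Mvd at 0.71, Idi1 with Stard4 at 0.68 and Idi1 with Cyp51 at 0.67. Hsd17b7 ran against Stard4 at -0.64, Cyp51 at -0.50 and Srebf2 at -0.42. Msmo1 ran against Srebf2 at -0.61. The third HFD24 array was the highest of its group in 5 of the 8 genes, with Cyp51 at 0.68 and Stard4 at 0.57 log2 units above the group mean, while Hsd17b7 was at -0.40 there. The second HFD16 array was the highest of its group in 6 of the 8. The pairs share arrays and their scaling, and the values are a description.

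**Figure D5:**
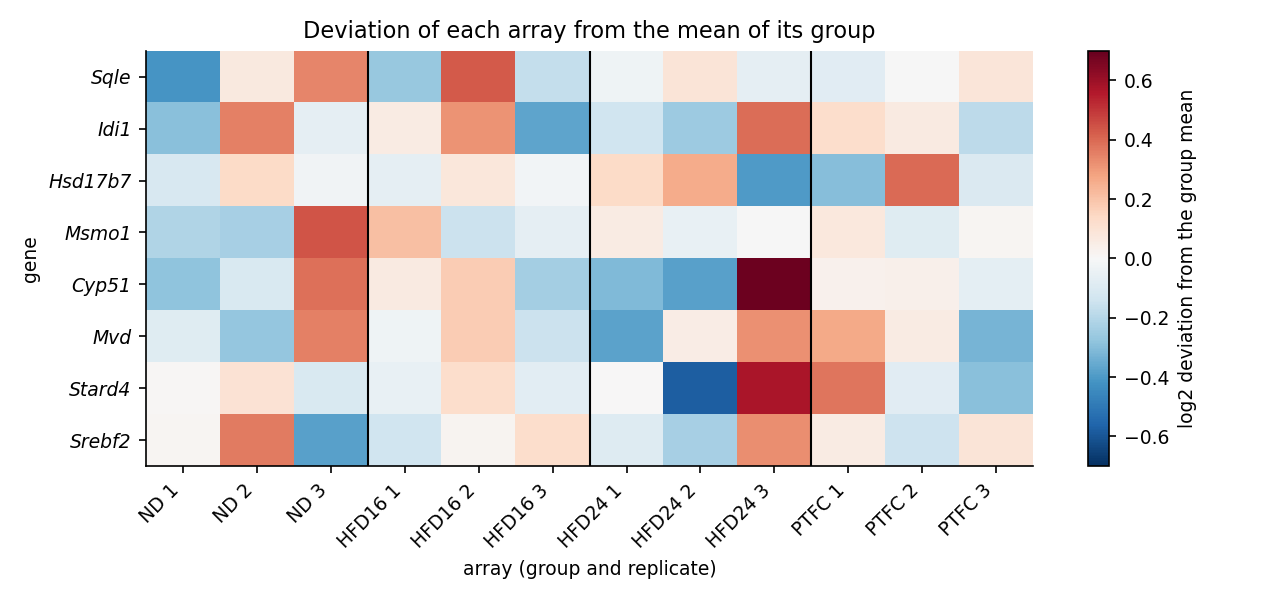
Deviation of each array from the mean of its group for the 8 genes, on the log2 scale, with arrays by group and replicate on the horizontal axis and red for higher and blue for lower. The third HFD24 array stands out with Cyp51 at 0.68 and Stard4 at 0.57 above the mean and Hsd17b7 at -0.40.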

How the data were processed

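The authors deposited linear spot intensity values of 26423 probes on 12 Cy5 arrays. Per the labels' protocols, total RNA was amplified with amino-allyl nucleotides, and background and scaling methods are not given in the sources used here. Values below 0 were set to 0. From the deposited intensity, log2(intensity + 1) was quantile normalized over all probes, and the brightest probe of each of 19084 named genes was kept. The model had a mean for each group over the 12 arrays and no replicate block. It was run with limma (version 3.58.1, under R 4.3.3; eBayes, trend on), checked on simulated data, two-sided, with Benjamini-Hochberg adjustment over all genes. The 22 alternatives covered scaling, pseudocount, dim genes, probe choice, the fit and each array left out. The 8 genes and the gene lists were chosen with earlier results of these data known. Named genes are the 8 genes, up to 4 of smallest p per list in HFD24 against ND and in PTFC against HFD24, 6 fixed sterol genes, and the 6 genes most like the 8. Genes named beside these (Dhcr7, Tat, Thy1, Cldn7, Erlin1, Tmem97 and Npc1l1) were chosen after their values were seen. The sample titles number the replicates and name no pairs. Replicate numbers were taken to pair samples only in HFD16 against ND, where same-numbered arrays deviated together weakly (r = 0.12, 0.15 and 0.11). These r come from the same data and do not show that the samples were paired. The main fit had no block in HFD16 against ND either. With the block 2766 genes and the same 5 of the 8 were called there.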

Additional observations from a re-analysis of the deposited data

How the results depend on the processing

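Over 22 alternatives to the settings used, 6 of the 8 genes were called in HFD24 against ND (6 to 7 with an array left out), 5 in HFD16 against ND throughout, and 5 to 6 in PTFC against ND. In PTFC against HFD24 3 were called, but 1 under median centring and 0 to 3 with an array left out; in HFD24 against HFD16 none was, but 1 with the scaling step as a covariate and 0 to 1 with an array left out. Of the 33 other sterol genes, 8 were called in HFD24 against ND, 8 in HFD16 against ND, 4 in PTFC against ND and 2 in PTFC against HFD24. These counts were 3 to 10, 3 to 11, 0 to 8 and 0 to 2 with an array left out, and 2, 0, 0 and 2 by limma with the step as a covariate (5 and 11 at an unadjusted p under 0.05 where it was 0). Split into lower and higher, the main counts were 4 and 4, 6 and 2, 4 and 0, and 1 and 1. Of all genes 8.28% and 9.97%, 8.11% and 10.0%, 1.29% and 1.04%, and 3.04% and 2.96% were called lower and higher. The counts in PTFC against HFD24 were therefore near the shares of all genes. Genes called of all moved too. With an array left out they numbered 1734 to 4939 in HFD24 against ND (3483 in the main setting), 1339 to 4516 in HFD16 against ND (3462), 11 to 1973 in PTFC against HFD24 (1145), 58 to 658 in PTFC against ND (445) and 3 to 10 in HFD24 against HFD16 (7). With the step as a covariate they numbered 1086, 219 and 54 in HFD24, HFD16 and PTFC against ND and 11 in HFD24 against HFD16. Median centring gave 230 in PTFC against ND and 4 in HFD24 against HFD16. For HFD24 against HFD16 no normalization gave 3, leaving out the dimmest 25% of genes 3, and a fit of only these groups 0, where PTFC against HFD24 gave 1745. The cause was not tested.

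The differences that changed sign were those not called. Under median centring these were Mvd at 0.0479 in HFD24 against ND, and Stard4 at 0.19 and Srebf2 at 0.0061 in HFD16 against ND. Without normalization, Sqle at 0.33 and Cyp51 at 0.0058 in PTFC against HFD24 did so. With an array left out, Mvd ran from -0.17 to 0.18 in HFD24 against ND and from -0.25 to 0.063 in HFD16 against ND, Stard4 from -0.11 to 0.0067 there, and Cyp51 from -0.44 to 0.088 in PTFC against HFD24. In HFD24 against HFD16, Sqle ran from -0.26 to 0.084, Hsd17b7 from -0.010 to 0.32 and Mvd from -0.057 to 0.29. The r of Efcab6 turned to -0.13 within groups. Without normalization the median of all genes moved to -0.23 in HFD24 and -0.22 in HFD16 against ND, 0.24 in PTFC against HFD24 and 0.10 in PTFC against ND, and the share of calls that were higher was 41.3%, 34.5%, 90.5% and 68.7% in place of 54.6%, 55.3%, 49.3% and 44.7%. Under median centring that share was 37.3% in PTFC against HFD24 and 32.6% in PTFC against ND.

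With the replicate number as a block, 2 of the 8 genes were called in PTFC against HFD24, Srebf2 being lost (limma adjusted p = 0.0808), and 337 of all genes; 4 of all were called in HFD24 against HFD16. The block changed no other call of the 8 genes. Outside HFD16 against ND the numbers were not taken to pair the samples. Of 18 correlations of same-numbered arrays over all groups 4 were over 0.1, and 4 of 18 were the highest for their array. In both counts these were the correlations of HFD16 with ND and that of the second HFD16 array with the second PTFC array (0.17). The 3 arrays per group and the brightness of dim probes, Sqle on the high-fat diet among them, limit the precision.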

Other observations

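The genes whose pattern over the 12 arrays was most like that of the 8 genes, by Pearson r with the mean of their standardized levels, were Aldoc, aldolase C (r = 0.94), Eras (0.92), Efcab6 (0.92), Lrrn3 (0.91), Tanc2 (0.91) and Sf3b4, a splicing factor (0.91). Aldoc had a mean log2 level of 12.13 in ND, 10.56 in HFD16, 10.27 in HFD24 and 10.29 in PTFC. With group means taken off, r was 0.21 for Aldoc, 0.54 for Eras and -0.13 for Efcab6, so the likeness of Efcab6 lay between groups and not within them. Of the other sterol genes the highest were Nsdhl (r = 0.85, place 74 of 19076 genes) and Fdps (0.80, place 194). The points share arrays and groups, and the values are a description.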
